A study of Mus musculus with 17 samples.

Results

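Lysosomal enzymes and membrane proteins were followed in mouse liver as a set of 33 genes, chosen by symbol: 8 proteases, 7 glycosidases, 7 lipid enzymes or cofactors, 8 membrane proteins and 3 genes of the proton pump or its regulation. Each of the 33 had its own entry among the 48440 genes of the table, and each passed the filter of a mean of at least 10 normalized counts, which left 14588 genes for testing. Polyadenylated liver RNA was sequenced from 3 groups. TG_2mon held 6 libraries of mice aged 2 months that carry a miR-29 transgene (5 from males, 1 from a female). WT_2year held 5 libraries of wild-type B6 mice aged 2 years (3 male, 2 female). WT_2mon held 6 libraries of wild-type B6 mice aged 2 months (4 male, 2 female). B6 is the common black inbred laboratory strain. All 3 groups share the tissue, and no other allele or treatment is named. The promoter and the cell type that drive the transgene, the miR-29 family member it encodes, its strain background and whether the carriers descend from 1 founder are not given in the sources used here. Libraries belong to batch A (10, TruSeq polyA kit, sequenced in North Carolina) or batch B (7, NEBNext Ultra II Directional kit, sequenced at Cornell), and all 7 of batch B came from males. The labels do not say that each library came from a separate animal, so p-values measure the spread between these libraries.

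Lysosomes are acidic compartments in which hydrolases cut proteins, sugars and lipids into parts that the cell reuses. A proton pump keeps the lumen acidic, membrane proteins such as LAMP1 and LAMP2 line the limiting membrane, and most soluble enzymes arrive from the Golgi with a sorting tag. The transcription factor TFEB switches many lysosomal genes on together through short CACGTG-type sites in their promoters. In liver, hepatocytes and the resident macrophages, called Kupffer cells, are both rich in lysosomes. miR-29 is a small RNA that lowers messages matching its seed, and the series title names it as a driver of ageing traits, so the design asks how liver messages differ with the transgene, with age, and between the transgenic and the old livers.

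Values are the authors' normalized counts, which summed to 28077001 to 44543936 per library, and sequencing depth is unknown. Hepatocyte markers were abundant in each library: 7 of 8 listed symbols were found, among them albumin, and their sum ran from 1938820 to 6602790 in TG_2mon, from 2787650 to 4917680 in WT_2year and from 3130370 to 4530610 in WT_2mon libraries. Between batches, 15 of the 33 lysosomal genes differed (limma on log2 of the normalized count plus 1, Benjamini-Hochberg adjusted p under 0.05), 8 higher and 7 lower in batch B, against 42.7% of all genes tested. The largest batch differences were Tpp1, which fell by 1.75 ± 0.22 (log2, SE) in batch B, and Tfeb, which rose by 1.75 ± 0.28. No member had all libraries of 1 batch above those of the other, against 8.36% of all genes. Batch and sex were terms of each fit, and values within each batch stand beside the results. Between females and males, 0 of 33 differed, against 0.26% of all genes. In bulk tissue, fewer cells of a type and less RNA per cell cannot be told apart.

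**Figure D1:**
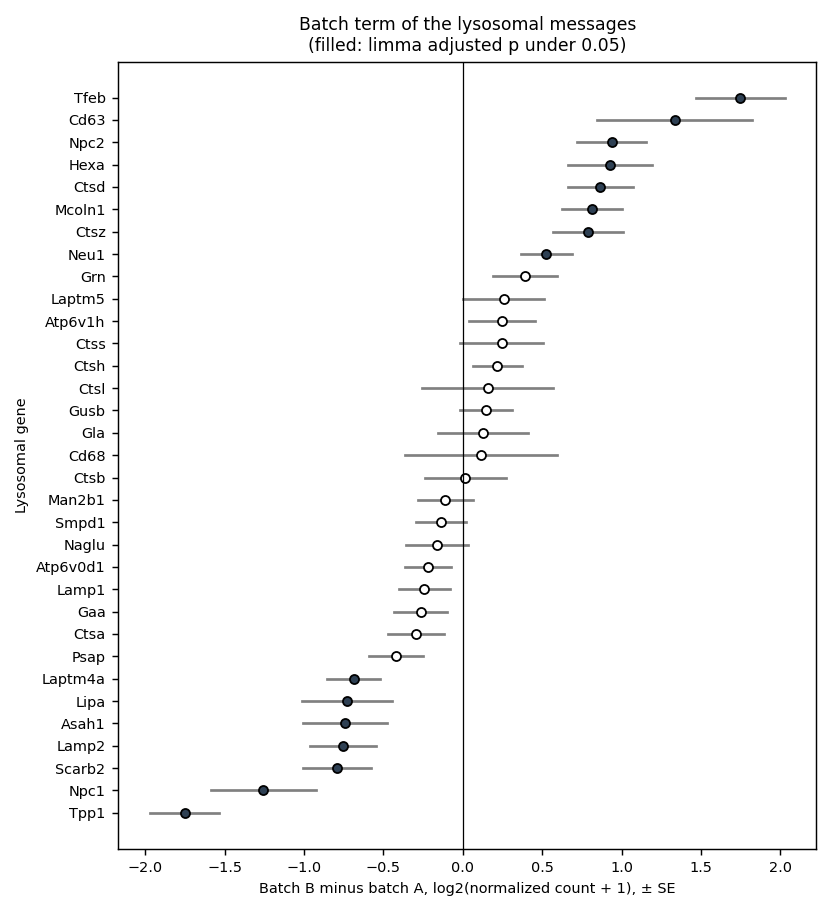
Fitted difference between batch B and batch A for each of the 33 lysosomal genes, on the log2(normalized count + 1) scale with its SE. Filled points are the 15 genes with a limma adjusted p under 0.05, from Tpp1 at -1.75 to Tfeb at 1.75.

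The miR-29 family was searched against the members first, because its target sites can be read from sequence. The 3 mature miR-29 RNAs (RefSeq, GRCm38.p6) share the seed at bases 2 to 8, in capitals:
miR-29a-3p: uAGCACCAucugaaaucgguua
miR-29b-3p: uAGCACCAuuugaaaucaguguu
miR-29c-3p: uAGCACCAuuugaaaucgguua
The 7-base match TGGTGCT was searched on the sense strand of the longest annotated 3′ UTR of each gene (GENCODE M21, GRCm38). It was found in 3 of 33 lysosomal genes, or 9.09%, and in 16.8% of the 12971 tested genes with a UTR of at least 30 bases. Lysosomal UTRs had a median of 780 bases, against 1325 bases for all of these tested genes. Shorter matches, other transcripts and coding sequence were not searched. The 4 matches, shown with 9 bases on either side as places where the transgene product could pair with a lysosomal message, were:
Ctsl site 1, chr13:64360883-64360907, minus strand: aggcagacaTGGTGCTggagaaaaa
Ctsl site 2, chr13:64359375-64359399, minus strand: aatcagatcTGGTGCTcttttctgg
Hexa, chr9:59565052-59565076, plus strand: gaaggaggcTGGTGCTggcactggt
Tfeb, chr17:47792279-47792303, plus strand: acccccattTGGTGCTaacagctct
The Tfeb match was followed by an A, which target prediction counts as an extended match, and the other 3 were not. The Ctsl matches began at bases 3200 and 4708 of an annotated UTR of 4761 bases. Whether Ctsl messages in liver reach that far was not tested. A match in these letters is a description and not a shown site. In TG_2mon against WT_2mon livers the fitted log2 fold changes of these 3 genes were 1.15 ± 0.41 for Ctsl, -0.10 ± 0.26 for Hexa and 0.32 ± 0.28 for Tfeb (SE), and none of the 3 was called lower.

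In the transgenic livers, no lysosomal gene passed the threshold against young wild type. In TG_2mon against WT_2mon, 0 of 33 were called (limma, adjusted p under 0.05), while 6.71% of all genes tested were. At an unadjusted p under 0.05, 5 of 33 passed, against 21.2% of all genes: Grn, Ctsl and Gusb lay higher and Scarb2 and Lamp2 lower. The authors' deposited table called 2 of 33, Ctsl at a log2 fold change of 1.33 (adjusted p = 0.00527) and Grn at 0.64 (adjusted p = 0.0116), beside 14.1% of its genes. Fitted changes were above 0 for 19 of 33 members and 50.5% of all genes, with medians of 0.05 over the members and 0.0058 over all genes. Estimates ran from -0.53 to 1.15, and no member separated the groups fully, against 2.95% of all genes. The 95% confidence interval lay wholly between -1 and 1 on the log2 scale for 28 of the 33. With normalized counts scaled to the library total instead, 25 of 33 were above 0, and the median over all genes was then 0.14.

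Progranulin (Grn), a glycoprotein that lysosomes cut into granulins and that supports their enzymes, had 5932 as lowest, 8233 as median and 12101 as highest normalized count in the 6 TG_2mon libraries. In the 6 WT_2mon libraries the same values were 3678, 5545 and 6242. The groups overlapped through TG_2mon replicates 1 and 3, at 5932 and 6039, and the other 4 transgenic libraries lay above each young wild-type library. Means were 8461 ± 2400 in TG_2mon and 5193 ± 927 in WT_2mon (SD, n = 6 each). Over all libraries the fitted log2 fold change was 0.62 ± 0.20 (SE, limma adjusted p = 0.0732), and within batches it was 0.47 (A) and 0.79 (B). Depending on the setting, its adjusted p lay between 0.0273 and 0.329, and 4 of 34 alternative fits called it.

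Cathepsin L (Ctsl), a cysteine protease of the lysosome, had 21437, 45317 and 212229 normalized counts as lowest, median and highest value in TG_2mon libraries. In WT_2mon libraries it had 17892, 24053 and 29698. TG_2mon replicate 3, the only female transgenic library, stood far above the other 5, which ran from 21437 to 56090, and TG_2mon replicate 1 lay within the young wild-type range. In TG_2mon replicate 3 Ctsl alone made up 0.756% of all normalized counts, and 0.0618% was the lowest share in a transgenic library. Ctsl had a fitted log2 fold change of 1.15 ± 0.41 (limma adjusted p = 0.110). Without TG_2mon replicate 3 it was 0.59 (adjusted p = 0.337), and without TG_2mon replicate 1 it was 1.41 (adjusted p = 0.0440), the only omission that brought a call.

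The other proteases had smaller fitted changes. Among the 8 proteases, which besides Ctsl are the cathepsins A, B, D, H, S and Z and the tripeptidyl peptidase Tpp1, 5 had a fitted change above 0 and the median was 0.08. That median was -0.07 within batch A and 0.24 within batch B. Cathepsin B, the abundant cysteine protease, averaged 16948 ± 5307 normalized counts in TG_2mon and 17079 ± 3959 in WT_2mon (SD, n = 6 each). Cathepsin D, the main aspartic protease, averaged 16519 ± 6230 in TG_2mon and 13415 ± 5884 in WT_2mon. For both genes the means differed by less than either SD. Cathepsin B had a fitted log2 fold change of -0.60 within batch A and 0.69 within batch B, so its near-equal means combine opposite values.

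Glycosidases strip sugars from glycogen, glycoproteins and glycolipids, and 6 of the 7 had a fitted change above 0, with a median of 0.07. That median was -0.04 within batch A and 0.20 within batch B. Beta-glucuronidase (Gusb), which trims glycosaminoglycans, had 874, 1199 and 1437 normalized counts as lowest, median and highest in TG_2mon libraries. In WT_2mon libraries it had 587, 923 and 1090. The ranges overlapped, and the fitted log2 fold change was 0.36 ± 0.17 (limma adjusted p = 0.217). Acid alpha-glucosidase (Gaa), the enzyme of glycogen breakdown, averaged 2151 ± 489 in TG_2mon and 2080 ± 269 in WT_2mon. Alpha-mannosidase (Man2b1) averaged 2561 ± 529 in TG_2mon and 2509 ± 436 in WT_2mon, a difference well inside the spread of either group. Lipid enzymes and cofactors had 4 of 7 above 0 and a median of 0.29, with 0.19 within batch A and 0.47 within batch B. This group is a loose one, as it also holds Grn and the cholesterol exporters Npc1 and Npc2.

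Membrane proteins had 3 of 8 fitted changes above 0 and a median of -0.28, or -0.15 with total scaling. Within batch A that median was -0.41, and within batch B it was -0.04. Scarb2, which encodes LIMP-2, the receptor that carries glucocerebrosidase to the lysosome, had 2482, 3028 and 5248 normalized counts as lowest, median and highest in TG_2mon libraries. In WT_2mon libraries it had 3496, 4266 and 8195. Lamp2, a membrane glycoprotein needed for fusion with autophagosomes, had 6941, 10850.5 and 14597 in TG_2mon and 9070, 17975 and 20730 in WT_2mon. Both ranges overlapped, with the highest young values in batch A. The fitted log2 fold changes were -0.53 ± 0.21 for Scarb2 (limma adjusted p = 0.150) and -0.49 ± 0.21 for Lamp2 (limma adjusted p = 0.176). Without TG_2mon replicate 1 the Scarb2 change was -0.34, and without TG_2mon replicate 3 the Lamp2 change was -0.26. Within batch A both lay lower, Scarb2 at -0.85 and Lamp2 at -0.86, than within batch B, where they were at -0.17 and -0.02.

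**Figure D2:**
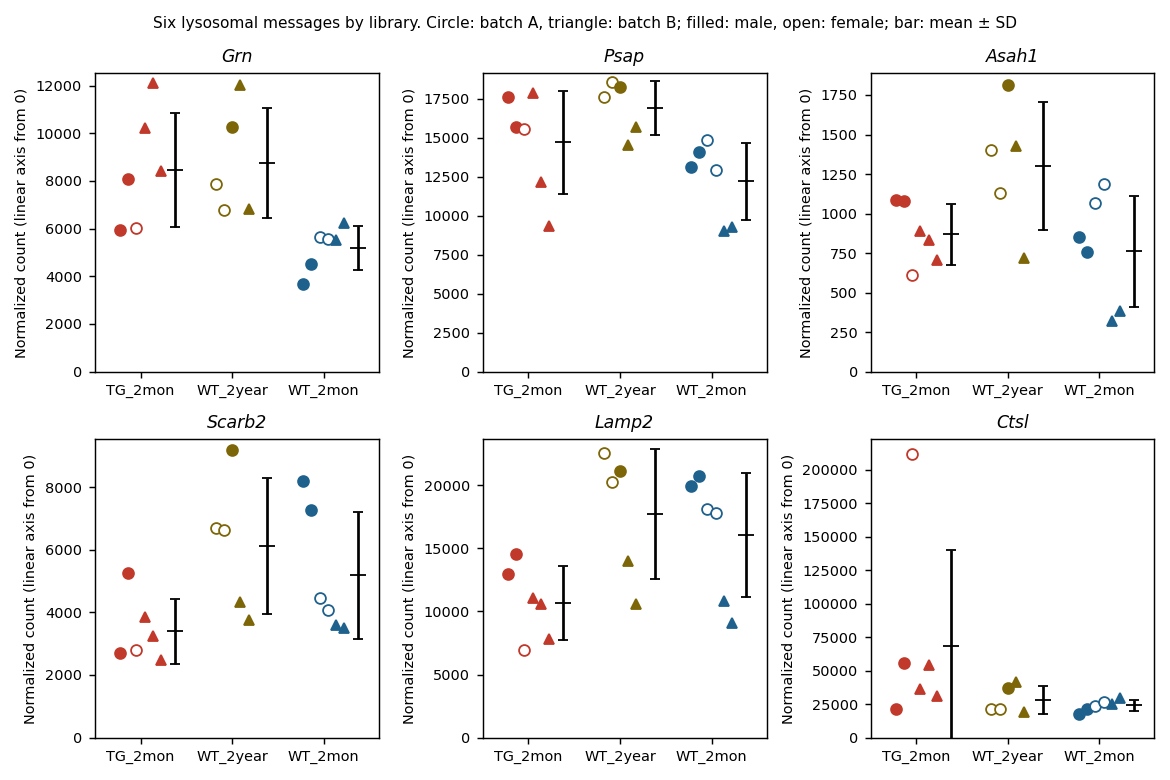
Normalized counts of 6 lysosomal genes in each library, by group, on linear axes from 0, with the mean ± SD beside each group (the lower arm of Ctsl in TG_2mon is cut off at 0). Grn in WT_2year libraries lies wholly above WT_2mon, and Ctsl in TG_2mon has 1 library at 212229, with the other 5 at or below 56090.

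The batches often leaned opposite ways: 16 of 33 members had the same sign in both and the others did not. Cd68, a glycoprotein of macrophage lysosomes and late endosomes, had 490, 436 and 513 normalized counts in the 3 batch B TG_2mon libraries and 55.2 and 167 in the 2 batch B WT_2mon libraries. In batch A it had 248, 287 and 147 in TG_2mon and 217, 378, 343 and 352 in WT_2mon. So the 3 batch B transgenic libraries lay above both of their controls, and in batch A the groups overlapped with the transgenic ones lower on average. The fitted log2 fold change was 2.30 in batch B and -0.53 in batch A, and the interaction with batch was 2.84 ± 0.64 (SE, limma adjusted p = 0.0635). The next smallest interaction p-values belonged to Laptm5, a lysosomal membrane protein of blood-derived cells (1.34), Ctsb (1.30), Lipa (1.48), Tpp1 (1.06), the cysteine protease Ctss (1.31) and acid ceramidase, Asah1 (1.32), each the log2 change in batch B minus that in batch A, with a limma adjusted p of 0.130 to 0.170. Within batch B these 6 lay above 0 and within batch A below 0, as with Ctss at 0.88 in B and -0.43 in A. No interaction with batch was called for any of 33 members, against 0.5% of all genes, and 10 of 33 passed an unadjusted p under 0.05, against 15.7%.

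Kupffer cell markers were also higher in the batch B transgenic libraries. Their 11 genes summed to 32216, 47660 and 54946 in the batch B TG_2mon libraries and to 25532.5 and 16252 in the batch B WT_2mon libraries. In batch A the sums were 16033, 19244 and 9216 in TG_2mon and 13941 to 20287 in WT_2mon. In the fit, 0 of 11 Kupffer markers were called, and their median log2 fold change was 1.37 in batch B and -0.51 in batch A. No marker of this list was at 0 in all libraries. Neutrophil markers differed more: 11 of the 12 tested were called higher in TG_2mon, beside 6.71% of all genes called in either direction. The filter on the mean could favour markers that are high in TG_2mon, such as Mmp8, which averaged 384 in TG_2mon, 18.8 in WT_2year and 2.28 in WT_2mon. The sum of the neutrophil markers ran from 548 to 48769 in TG_2mon, from 143 to 2385 in WT_2year and from 61.3 to 537 in WT_2mon libraries. Among the 11 markers of monocytes and recruited macrophages Itgam rose and Spp1 fell, with sums of 3678 to 15062 in TG_2mon and 4283 to 6267 in WT_2mon. Of the other lists, Ighm rose among B and plasma cell markers, though only 3 of the 8 tested lay above 0, with a median of -0.82. Stab2 rose among sinusoidal endothelial markers, where 7 of 8 lay above 0 with a median of 0.11. None was called among T and NK cell, stellate cell or cholangiocyte markers. The part of these cells in the lysosomal values was not tested.

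**Figure D3:**
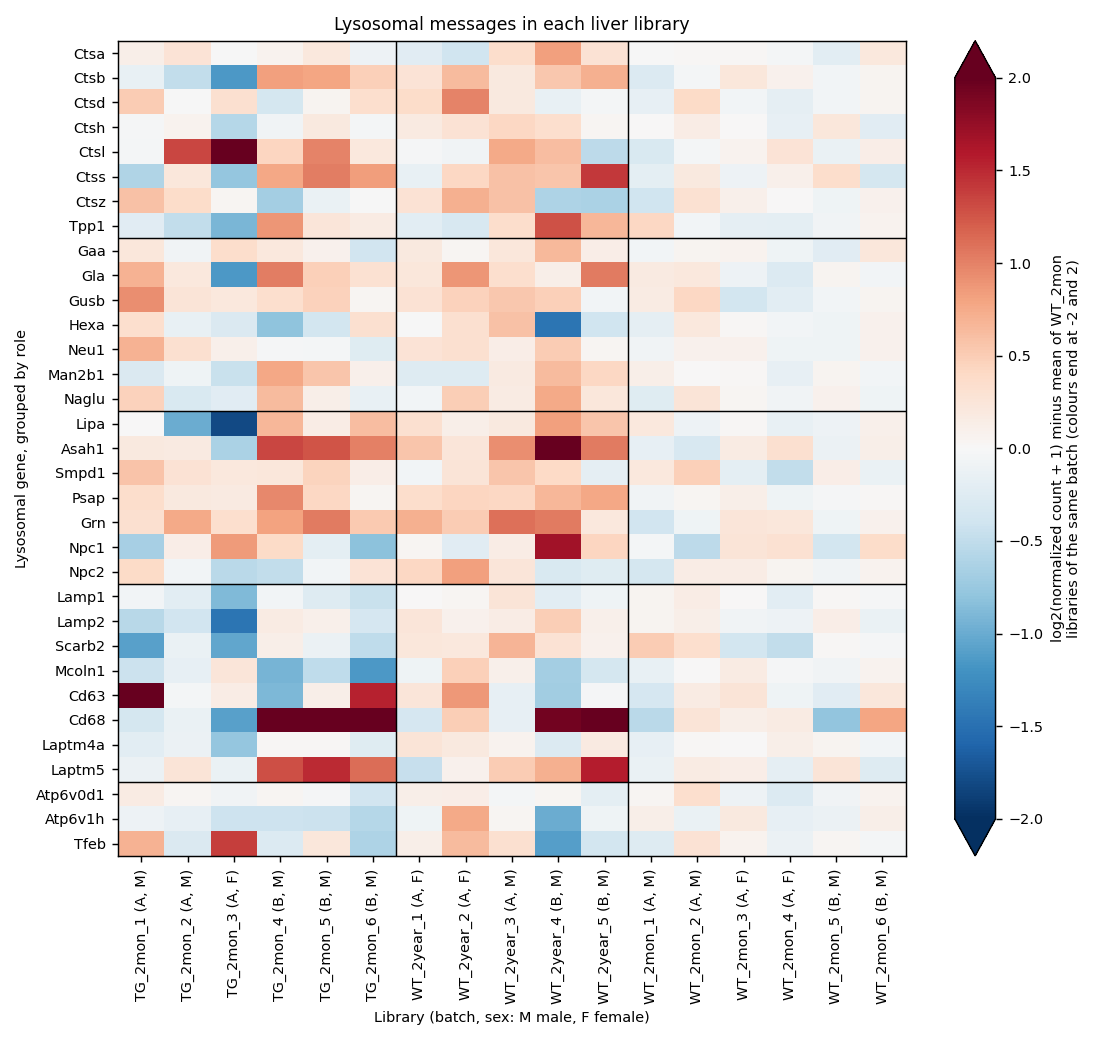
Each lysosomal gene (by role, top to bottom: proteases, glycosidases, lipid enzymes and cofactors, membrane proteins, pump and regulator) in each library, as log2(normalized count + 1) minus the mean of the WT_2mon libraries of the same batch. Cd68 is dark red in the batch B transgenic and old libraries alone, and TG_2mon replicate 3 is dark red for Ctsl and blue for Lipa and Lamp2.

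In old livers, lysosomal values leaned upward without a call. In WT_2year against WT_2mon, 0 of 33 members were called (limma, adjusted p under 0.05), and 0.144% of all genes were. At an unadjusted p under 0.05, 4 passed, all higher (Grn, Asah1, Psap and Gusb), against 8.73% of all genes, or 4.56% counted upward. The authors' deposited table called 1 of 33, Psap at a log2 fold change of 0.52 (adjusted p = 0.0239), beside 1.77% of its genes. Fitted changes were above 0 for 29 of 33 members and for 49.7% of all genes. The member median was 0.27, against -0.0027 over all genes, and was 0.28 within batch A and 0.27 within batch B. Member by member the batches matched less closely, with the same sign in both for 19 of 33. Fitted within batch B alone 22 of 33 were above 0, and in males alone 23. Without TG_2mon replicate 3 and WT_2year replicate 4 together, a setting chosen after seeing the data, 33 of 33 were. Over 35 alternative settings 18 members stayed above 0 throughout and the other 15 changed sign in at least 1. Members share libraries, so these counts are a description.

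The summed values showed the same lean. The 33 genes together made up 0.553% to 0.634% of all normalized counts in WT_2year libraries and 0.369% to 0.525% in WT_2mon libraries, and the ranges did not overlap. Without Ctsl the shares were 0.485% to 0.530% in WT_2year and 0.314% to 0.455% in WT_2mon. TG_2mon libraries overlapped both, at 0.381% to 0.491% without Ctsl. Within batch B the full shares were 0.609% and 0.593% in the 2 WT_2year libraries and 0.369% and 0.422% in the 2 WT_2mon libraries. Library totals enter these shares, and the 2 lowest WT_2mon shares are in the WT_2mon libraries with the largest totals, 44543936 and 40984509. With normalized counts scaled to the library total, the median age change over all genes was itself 0.13, and the member median was 0.41. The shares therefore include a shift of all genes.

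Grn gave the clearest separation with age. It had 7857, 6773, 10274, 12040.2 and 6829.7 normalized counts in the 5 WT_2year libraries, in order of replicate. In WT_2mon it had 3678, 5545 and 6242 as lowest, median and highest. Each old library lay above each young one, the only lysosomal gene of which this was true in either direction, and 0.61% of all genes tested separated in either direction and 0.35% with the old libraries higher. The mean was 8755 ± 2321 in WT_2year (SD, n = 5) and 5193 ± 927 in WT_2mon (SD, n = 6). The fitted log2 fold change was 0.71 ± 0.21 (SE, limma adjusted p = 0.299), and within batches it was 0.78 (A) and 0.63 (B).

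Saposins and acid ceramidase followed. Prosaposin (Psap), the precursor of the saposins that present sphingolipids to their hydrolases, had 17601, 18547, 18224, 14519 and 15681.5 normalized counts in WT_2year libraries. In WT_2mon libraries it had 9014, 13026.5 and 14862 as lowest, median and highest. Only the old library at 14519, from batch B, lay inside the young range. Within batch B the old values were 14519 and 15681.5 and the young values 9014 and 9265. Its fitted change on the log2 scale was 0.52 ± 0.18 (limma adjusted p = 0.432).

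Asah1, which splits ceramide into sphingosine and fatty acid, had 1400.2, 1129.85, 1813, 1427 and 720 normalized counts in WT_2year libraries. In WT_2mon it had 323, 805 and 1186 as lowest, median and highest. The groups overlapped through the old libraries at 1129.85 and 720. The library at 720 is from batch B, where the 2 young libraries had 323 and 381. In the fit the log2 fold change was 0.92 ± 0.28 (limma adjusted p = 0.321), and within batches it was 0.61 (A) and 1.53 (B). Without WT_2year replicate 4 it was 0.76 (adjusted p = 0.812). Gusb, at 1106 ± 208 in WT_2year and 863 ± 207 in WT_2mon, had a fitted log2 fold change of 0.39 ± 0.17 (limma adjusted p = 0.550).

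By role, all 8 proteases and all 7 lipid enzymes and cofactors had a fitted age change above 0, with medians of 0.28 and 0.39. In these roles Ctsa (-0.05) and Npc1 (-0.10) lay below 0 within batch A. Ctsd (-0.10), Ctsz (-0.62) and Npc2 (-0.27) lay below 0 within batch B. Glycosidases followed with 6 of 7 above 0 and a median of 0.28, and Man2b1 lay at -0.07 within batch A. The exception was Hexa, the alpha subunit of the enzyme that degrades GM2 ganglioside, at -0.15 ± 0.27. Hexa was at 0.34 within batch A and -0.93 within batch B. Of the 8 membrane proteins 7 lay above 0 with a median of 0.16, or 0.18 within batch A and 0.07 within batch B. Lamp1 (-0.15), Mcoln1 (-0.51), Cd63 (-0.36) and Laptm4a (-0.05) lay below 0 within batch B. The pump subunits Atp6v0d1 and Atp6v1h and the regulator Tfeb had a median of -0.06 with 1 of the 3 above 0. The sign of that median flipped to 0.01 with upper quartile scaling and 0.08 with total scaling. Within batch A the median was 0.23, and within batch B it was -0.54. Atp6v0d1 averaged 2022 ± 204 in WT_2year and 2022 ± 296 in WT_2mon.

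With age, Cd68 had the smallest p of the interactions with batch. Cd68 had 369 and 927 normalized counts in the batch B WT_2year libraries and 55.2 and 167 in the batch B WT_2mon libraries. In batch A it had 250, 446 and 282 in WT_2year and 217 to 378 in WT_2mon, so that 1 old library lay above the young range and 2 inside it. The interaction of age with batch was 2.58 ± 0.67 (SE, limma adjusted p = 0.106), and the next were Ctsz, a carboxypeptidase, at -1.16 (adjusted p = 0.127, limma) and Hexa at -1.28 (adjusted p = 0.152, limma). Such interactions were called for 0 of 33 members and 0.0206% of all genes. Interactions of age with sex were called for 0 of 33 members and 0.0137% of all genes. Kupffer marker sums were 19313 and 51136 in the same batch B WT_2year libraries, and over all WT_2year libraries they ran from 14316 to 51136. With age, 0 of 11 Kupffer markers were called and their median log2 fold change was 0.35. B and plasma cell markers differed too: Ighm and Ighg2c rose in WT_2year, the only calls on the marker lists with age, and the list summed to 2970 to 9075 in WT_2year and 552 to 2237 in WT_2mon. The part of these cells in the age values was not tested.

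**Figure D4:**
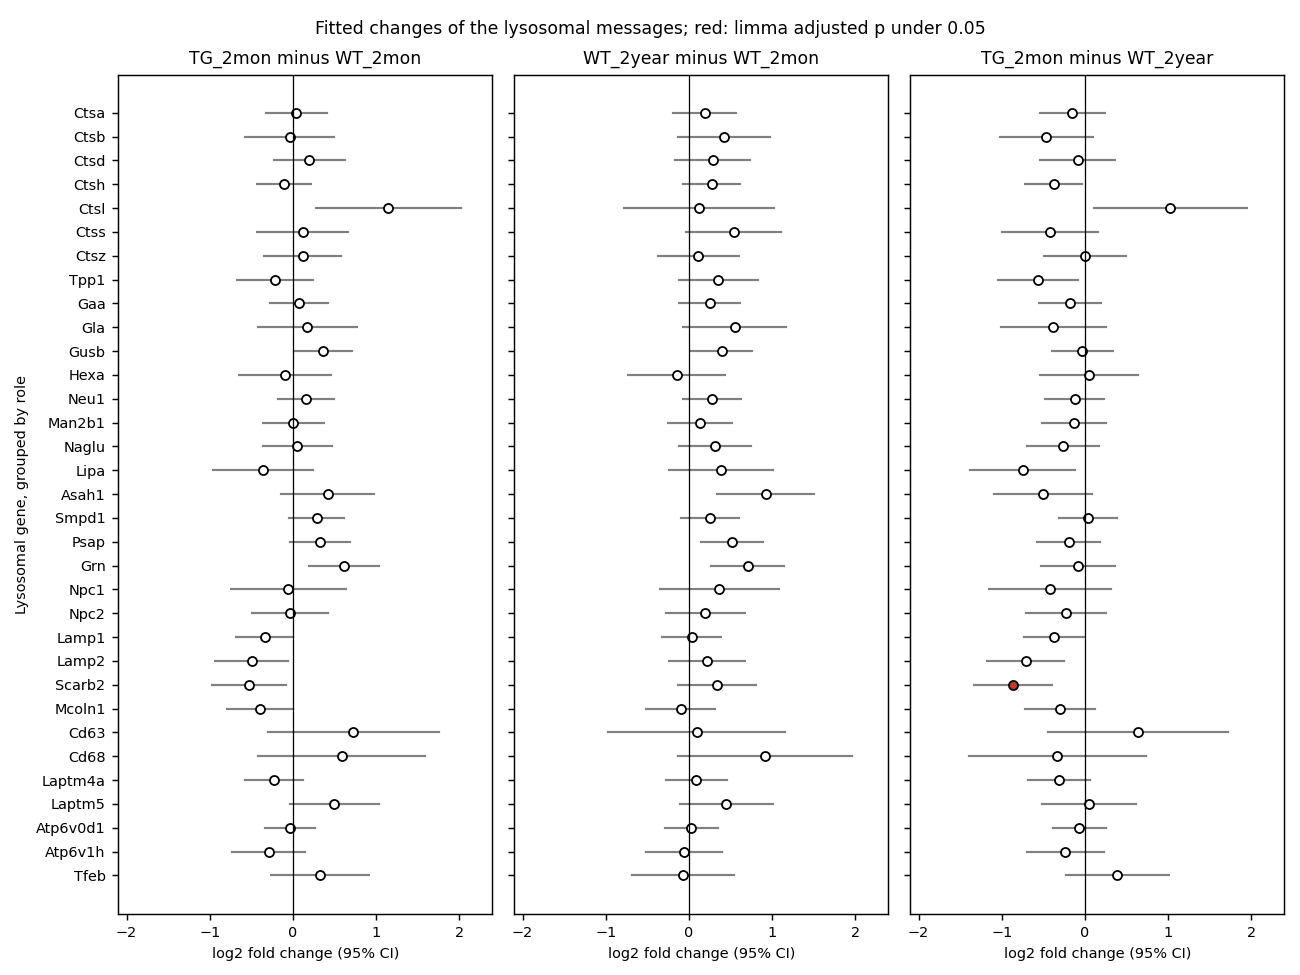
Fitted log2 fold changes of the 33 lysosomal genes with 95% confidence intervals in the 3 comparisons. Scarb2 in TG_2mon against WT_2year (-0.87) is the only estimate with a limma adjusted p under 0.05, and 29 of 33 age estimates lie right of 0.

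Transgenic and old livers were then compared directly. The 3 comparisons share libraries in pairs, so their values are given side by side and not correlated. In TG_2mon against WT_2year, 1 of 33 members was called (limma, adjusted p under 0.05), Scarb2, which fell, against 2.55% of all genes called in either direction and 1.84% called lower. At an unadjusted p under 0.05, 7 of 33 passed, against 15.3% of all genes: Scarb2, Lamp2, Lipa, Tpp1, Ctsh and Lamp1 lower and Ctsl higher. Fitted changes were above 0 for 7 of 33 members and for 52.2% of all genes, with a member median of -0.23, against 0.02 over all genes. No member separated the groups fully, against 1.82% of all genes. By role the medians were -0.26 for proteases, -0.13 for glycosidases, -0.23 for lipid enzymes and cofactors, -0.32 for membrane proteins and -0.07 for pump and regulator genes. Within batch A the member median was -0.25, and within batch B it was -0.05. Without TG_2mon replicate 3 it was -0.12 over all remaining libraries, with 8 of 33 above 0.

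Scarb2 had 2482, 3028 and 5248 normalized counts as lowest, median and highest in TG_2mon libraries. In the WT_2year libraries it had 6692, 6639.9, 9187, 4324 and 3747. The 3 old batch A libraries lay above each transgenic library, and the 2 old batch B libraries, at 4324 and 3747, lay inside the transgenic range. Means were 3393 ± 1032 in TG_2mon (SD, n = 6) and 6118 ± 2171 in WT_2year (SD, n = 5). The fitted log2 fold change was -0.87 ± 0.22 (SE, limma adjusted p = 0.0486), and within batches it was -1.33 (A) and -0.35 (B). The call was close to the threshold. It held when WT_2year replicate 4 or TG_2mon replicate 4 was left out and was lost without any 1 of the other 15 libraries, at adjusted p from 0.0521 to 0.121, while the change stayed between -0.99 and -0.71.

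Lamp2 had 6941, 10850.5 and 14597 as lowest, median and highest in TG_2mon libraries. In WT_2year it had 22569, 20273, 21140.1, 13988 and 10605 normalized counts. Here too the 3 old batch A libraries lay above each transgenic library and the 2 of batch B lay inside the transgenic range. The fitted log2 fold change was -0.71 ± 0.22 (limma adjusted p = 0.104), and without TG_2mon replicate 3 it was -0.46. Lipa, the acid lipase that frees cholesterol from its esters, had 1920.0, 3858 and 6759 as lowest, median and highest in TG_2mon. In WT_2year it had 8329, 7224, 7663, 5006 and 4136, so that the old batch A libraries again lay above the transgenic ones. Its fitted log2 fold change was -0.75 ± 0.30 (limma adjusted p = 0.235), and without TG_2mon replicate 3, the lowest Lipa library, it was -0.37.

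Other members also stood apart in TG_2mon replicate 3, which was the lowest of all 17 libraries for 9 of 33 members and the highest for 2. Its median deviation from young batch A wild type over the 33 was -0.23 on the log2 scale, and 0.01 over all genes tested. The other 5 transgenic libraries had member medians from -0.04 to 0.21. TG_2mon replicate 3 is the only female transgenic library, so sex and this library cannot be told apart. It also had the lowest total of normalized counts of all 17 libraries, 28077001. Its hepatocyte marker sum, 1938820, and Kupffer marker sum, 9216, were the lowest of the 17 as well. The part of these differences was not tested. Interactions of the transgene with sex were called for 0 of 33 members, against 1.3% of all genes, and the smallest was Asah1 (limma adjusted p = 0.0760).

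Grn did not separate TG_2mon from WT_2year. It averaged 8461 ± 2400 in TG_2mon and 8755 ± 2321 in WT_2year (SD, n = 6 and 5), a fitted log2 fold change of -0.09 with a 95% interval from -0.53 to 0.36. Psap averaged 14710 ± 3316 in TG_2mon and 16915 ± 1740 in WT_2year, at -0.19 with an interval from -0.57 to 0.18. These intervals bound the difference and do not show that the groups are alike. Smpd1, the acid sphingomyelinase, averaged 1455 ± 162 in TG_2mon and 1344 ± 273 in WT_2year, with 1171 ± 274 in WT_2mon. Mcoln1, the calcium channel of the lysosomal membrane, averaged 682 ± 182 in TG_2mon and 819 ± 204 in WT_2year, with 883 ± 410 in WT_2mon. Tfeb averaged 439 ± 248 in TG_2mon, 293 ± 156 in WT_2year and 337 ± 286 in WT_2mon, and within a group its values split by batch.

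The cholesterol exporters Npc1 and Npc2, which pass cholesterol out of the lysosome, varied more within than between groups. Npc1 averaged 2248 ± 1883 in TG_2mon, 2722 ± 828.7 in WT_2year and 2424 ± 1246 in WT_2mon. Npc2 averaged 4708 ± 2242 in TG_2mon, 4807 ± 934 in WT_2year and 4268 ± 1925 in WT_2mon. Cd63, a tetraspanin of late endosomes and lysosomes, averaged 703 ± 640 in TG_2mon, 304 ± 169 in WT_2year and 297 ± 227 in WT_2mon. Its TG_2mon values ran from 149 to 1678, a wider range than in either wild-type group.

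Members were also compared for the TFEB-type site in their promoters. Windows from 250 bases before to 50 bases after each RefSeq start site (GRCm38.p6) were matched for 28 of 33 members. The core CACGTG, which reads the same on both strands, was in the window of 9 of these 28, or 32.1%, and in 11.5% of the 10393 tested genes with a window. These 9 were Atp6v0d1, Ctsa, Ctsd, Ctsl, Gaa, Gla, Lamp1, Mcoln1 and Naglu. The longer TCACGTGA, which contains the core and is also its own reverse complement, was in 5 of 28, or 17.9%, and in 2.11% of the tested genes. With a G before it and a C after it, the longer form was in 0 of 28 and in 0.751% of the tested genes. The stretches from 110 bases to 1 base before the start site are shown for 4 members with a core there (capitals mark the core, or TCACGTGA where it is complete) and for Scarb2 and Grn, which the results turn on and which have none in this window:
Lamp1, chr8:13159051-13159160, plus strand: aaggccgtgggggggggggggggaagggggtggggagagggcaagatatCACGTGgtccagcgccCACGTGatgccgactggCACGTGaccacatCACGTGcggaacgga
Mcoln1, chr8:3500409-3500518, plus strand: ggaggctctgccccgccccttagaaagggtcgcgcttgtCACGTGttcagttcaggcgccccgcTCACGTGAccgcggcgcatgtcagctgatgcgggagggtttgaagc
Ctsd, chr7:142387828-142387937, minus strand: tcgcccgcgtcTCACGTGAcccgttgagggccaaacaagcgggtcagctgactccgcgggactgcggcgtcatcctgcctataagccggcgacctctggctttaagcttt
Naglu, chr11:101069984-101070093, plus strand: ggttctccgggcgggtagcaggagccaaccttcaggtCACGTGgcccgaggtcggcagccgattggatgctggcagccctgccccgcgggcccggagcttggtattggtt
Scarb2, chr5:92505658-92505767, minus strand: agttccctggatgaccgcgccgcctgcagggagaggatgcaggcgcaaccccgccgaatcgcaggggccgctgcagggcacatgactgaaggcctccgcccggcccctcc
Grn, chr11:102430397-102430506, plus strand: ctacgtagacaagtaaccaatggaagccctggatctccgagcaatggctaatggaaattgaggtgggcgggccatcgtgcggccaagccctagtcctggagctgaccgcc
Lamp1 carried 4 cores, the most among the members, and Ctsa, Ctsd, Gla and Mcoln1 carried 2 each. In WT_2year against WT_2mon the 9 members with a core had a median fitted log2 fold change of 0.19 and the 19 without had 0.28. In TG_2mon against WT_2mon the medians were 0.05 with a core and 0.12 without. A match is a description of letters, and no match says only that these letters are not in the window.

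**Figure D5:**
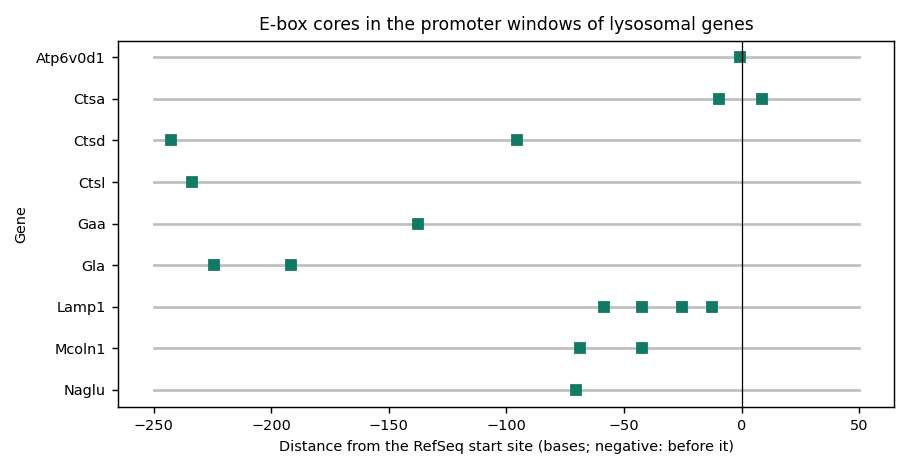
Positions of the 6-base core CACGTG in the promoter windows of the 9 lysosomal genes that hold it, in bases from the RefSeq start site (0). Lamp1 has 4 cores within 61 bases before the start site.

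Some other genes of the pathway were called in TG_2mon against WT_2mon, where 6.71% of all genes tested were called in either direction. Of 37 other lysosomal hydrolases and cofactors, 3 fell in TG_2mon against WT_2mon (limma, adjusted p under 0.05). Arsa, which desulfates sulfatide, averaged 311 ± 91 normalized counts in TG_2mon and 760 ± 406 in WT_2mon (SD, n = 6 each). Its log2 fold change was -1.18 ± 0.26 (adjusted p = 0.0114), and the call held without each of the 17 libraries in turn. It was lost with total scaling (0.0710), no sex term (0.0546), no batch or sex term (0.0850) and batch B only (0.255), all as limma adjusted p. Dpp7, a dipeptidyl peptidase, fell by 1.12 ± 0.29 (adjusted p = 0.0274), with the call lost without WT_2mon replicate 2, 5 or 6 or TG_2mon replicate 2 or 3 (adjusted p up to 0.0829). Glb1, the beta-galactosidase, fell by 0.67 ± 0.18 (adjusted p = 0.0342), with the call lost without any 1 of WT_2mon replicates 1 to 5 and TG_2mon replicates 2, 3 and 6 (adjusted p up to 0.113).

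Among 25 tested transporters and other lysosomal membrane proteins, Slc17a5, the sialic acid exporter, fell by 0.81 ± 0.20 in TG_2mon against WT_2mon (limma adjusted p = 0.0237). That call was lost without WT_2mon replicate 5 or 6 (adjusted p of 0.0736 and 0.0757). None of 18 other proton pump subunits, 16 sorting genes or 22 autophagy genes was called. The smallest p in each belonged to Atp6v1b2 (log2 fold change 0.62, limma adjusted p = 0.0574), Ap1b1 (0.41, adjusted p = 0.124) and Ulk1 (-0.75, adjusted p = 0.155). Among 18 relatives of TFEB and nutrient-signalling genes, Ppargc1a, a coactivator of mitochondrial and fasting genes, averaged 1358 ± 1335 in TG_2mon and 541 ± 362 in WT_2mon. It rose by 1.48 ± 0.41 (limma adjusted p = 0.0394), with the call lost without WT_2year replicate 5, any 1 of WT_2mon replicates 2 to 6, or TG_2mon replicate 2, 3 or 5 (adjusted p up to 0.139).

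Inhibitors of cysteine cathepsins had the largest fold changes among these lists. Of 5 tested cystatin and stefin genes, Stfa2l1, Stfa2 and Stfa3 rose in TG_2mon against WT_2mon. Stfa2l1 averaged 94.0 ± 97.2 normalized counts in TG_2mon and 0.716 ± 0.667 in WT_2mon (SD, n = 6 each; limma adjusted p = 0.000727). Stfa2 averaged 63.6 ± 67.6 in TG_2mon and 0.281 ± 0.688 in WT_2mon (limma adjusted p = 0.00178). Stfa3 averaged 42.3 ± 62.0 in TG_2mon and 0.227 ± 0.557 in WT_2mon (limma adjusted p = 0.0258), with a call lost without WT_2mon replicate 5 or 6 or TG_2mon replicate 3 or 6 (adjusted p up to 0.0696). The stefin A genes are near-identical copies, so the split of reads between them is uncertain. Neutrophil markers, given above, were higher in the same group, and their part was not tested.

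With age, 1 of the 146 listed pathway genes was called, beside 0.144% of all genes tested. Not all of the listed genes passed the filter for testing. Sort1, the sorting receptor sortilin, averaged 107 ± 34 in WT_2year (SD, n = 5) and 387 ± 149 in WT_2mon (SD, n = 6) and fell by 1.76 ± 0.27 (limma adjusted p = 0.0139). The Sort1 call was lost without WT_2year replicate 3 (limma adjusted p = 0.0681), with total scaling (0.0673), no batch or sex term (0.0547), batch A only (0.144), batch B only (0.122) and males only (0.0624). Among the 37 other hydrolases 30 had a fitted age change above 0, with a median of 0.28, close to the member median of 0.27. Pla2g15, the lysosomal phospholipase, had the smallest p of that list (log2 fold change 0.70, limma adjusted p = 0.125). In TG_2mon against WT_2year, 2.55% of all genes tested were called in either direction. There Arsa fell by 1.29 ± 0.28 (limma adjusted p = 0.0181) and Laptm4b, a relative of Laptm4a, by 0.83 ± 0.17 (limma adjusted p = 0.0136). Sort1 was higher by 1.25 ± 0.27 (limma adjusted p = 0.0207) and Ppargc1a by 2.09 ± 0.43 (limma adjusted p = 0.0161). The stefins Stfa2, Stfa2l1 and Stfa3, which passed the filter only through TG_2mon, were higher by 4.20, 3.91 and 3.44 (limma adjusted p of 0.0115, 0.0166 and 0.0498). The Stfa3 call was lost in 13 of 16 omissions of 1 library (limma adjusted p up to 0.167). Arsa, Ppargc1a and Stfa2l1 lost the call without WT_2year replicate 5, at limma adjusted p of 0.0625, 0.0610 and 0.0661. Without TG_2mon replicate 3 it was lost for Ppargc1a, Sort1 and Stfa2l1, at 0.0550, 0.0581 and 0.0554. Sort1 also lost it without WT_2year replicate 3, at 0.0626.

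The remaining calls of list genes also ended in some settings. In TG_2mon against WT_2mon, no batch or sex term ended those of Dpp7, Glb1, Slc17a5, Ppargc1a and Stfa3, at limma adjusted p of 0.328, 0.0540, 0.128, 0.377 and 0.0652. Batch B alone ended the same 5 and Stfa2, and males alone ended those 5. Batch A alone ended the calls of Glb1, Slc17a5, Ppargc1a and Stfa2. Glb1 also lost its call with total or upper quartile scaling (limma adjusted p of 0.112 and 0.0787) and Slc17a5 with no sex term (0.0784). Ppargc1a lost its call with no filter, no trend or no sex term (limma adjusted p up to 0.0638) and Stfa3 with a pseudocount of 5 (0.0508). With the replicate number as a block, Glb1, Ppargc1a and Stfa3 lost theirs (limma adjusted p of 0.0589, 0.0791 and 0.0774), and without TG_2mon replicate 3 and WT_2year replicate 4 together Glb1 and Stfa3 lost theirs (0.103 and 0.0569). The Stfa2l1 call held in all 33 alternatives that gave a value. In TG_2mon against WT_2year, of the alternatives that gave a value the call held in 26 of 34 for Arsa, 28 of 34 for Laptm4b, 25 of 34 for Sort1, 28 of 34 for Ppargc1a, 28 of 33 for Stfa2, 27 of 33 for Stfa2l1 and 9 of 31 for Stfa3. Each of these 7 calls was lost in a fit of the 2 groups alone and in batch B alone.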

How the data were processed

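Liver polyA RNA libraries were sequenced on a NextSeq2000, per the labels. The submitters' processing notes name STAR 2.5.3a, Salmon 0.6.0, DESeq2 and mm10, without saying what each did. The authors deposited 1 table of normalized counts (the signal used here), scaled by DESeq2 per the file headers. The authors' deposited comparison tables hold a mean signal, log2 fold changes with their SE, a test score and p-values. Strand use in the counting is not given in the sources used here.

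Low values lay near whole multiples of 1 read in 54.5% to 69.5% of cases (tolerance 0.1 read), so reads were not recovered, depth is unknown and no count model was run. Genes with a mean of at least 10 (14588 of 48440) were fitted as log2(normalized count + 1) with limma 3.58.1 in R 4.3.3, with a trended prior and terms for group, batch and sex over all 17 libraries, and Benjamini-Hochberg adjustment over all genes. Fold changes are on that scale, which understates low genes. The fit was tested on simulated data. Tables and figures used Python 3.11.15, pandas 2.3.3, numpy 2.4.6 and matplotlib 3.10.9.

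The 33 members, the 7 pathway lists and the 9 marker lists were chosen with earlier results of these data known. Values in each library are given for members called in a comparison and, where fewer than 3 were called, for the 3 with the smallest p. From the lists, called genes are named (up to 3 per direction), or the 1 gene with the smallest p where none was called. A called gene of the hydrolase list is not reported here. Cd68 and the batch B values were singled out after their values were seen, as were the other members given by mean and SD. Alternatives changed the pseudocount, filter, scaling, trend, weights, libraries and terms. Identical pairs of libraries numbered 0. Promoter and microRNA sequences come from RefSeq (GRCm38.p6) and 3′ UTRs from GENCODE M21, and 5 members had no promoter window.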

Additional observations from a re-analysis of the deposited data

Results flagged for a closer look

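Dixon's test for a single outlying library was applied to each member in each group, 99 sets in all, of which 1 in 20 would be picked out by chance, or 4.95 sets. It picked out 3. Ctsl in TG_2mon had 212229 normalized counts in replicate 3, with the other 5 libraries between 21437 and 56090. Ctsa, which encodes the protective protein of neuraminidase, had 2770.4 normalized counts in WT_2mon replicate 5, with the other 5 libraries between 3737 and 4067. Gaa had 1569 normalized counts in the same WT_2mon replicate 5, with the other 5 between 2065 and 2309.5.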

How the results depend on the processing

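In TG_2mon against WT_2mon the count of members called, 0, became 1 with total scaling, with array quality weights, with only the 2 groups compared and, in a setting chosen after seeing the data, without TG_2mon replicate 3 and WT_2year replicate 4 together, each time Grn (limma adjusted p of 0.0344, 0.0273, 0.0417 and 0.0439). The authors' deposited table called 2, Ctsl and Grn. Leaving out 1 library gave 0 to 1. In WT_2year against WT_2mon the count of 0 became 1 (Psap) in the authors' deposited table and stayed 0 to 0 with 1 library left out. In TG_2mon against WT_2year the count of 1, Scarb2, became 0 with no filter, a mean of at least 50, total scaling, no trend, only the 2 groups compared, no sex term, no batch or sex term, batch B only, males only and the added setting, at limma adjusted p of 0.0728, 0.0510, 0.0584, 0.0670, 0.174, 0.117, 0.264, 0.580, 0.327 and 0.136. Leaving out 1 library gave 0 to 1. The causes were not tested. No result changed direction in these settings among those with an unadjusted p under 0.05.

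Whether replicate numbers pair the libraries was not settled. Deviations of libraries with the same number correlated above 0.1 in 5 of 6, 4 of 5 and 4 of 5 pairs. Only 2, 1 and 3 libraries correlated best with their own number. With the replicate number as a block the members called were 0, 0 and 0, and Scarb2 had -0.82 (limma adjusted p = 0.136). Calls over all genes with the block were 796, 11 and 247, against 979, 21 and 372.

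Over all genes, total scaling gave 514 higher and 400 lower in TG_2mon against WT_2mon, against 421 and 558, and upper quartile scaling 518 and 456. Batch B alone gave 323, 0 and 48 calls in the 3 comparisons and batch A alone 623, 3 and 215. With no batch or sex term there were 421, 5 and 139. Array quality weights gave 60 with age and 733 against WT_2year, and the authors' deposited tables called 2211 with the transgene and 280 with age. Only the 2 groups compared gave 34 with age and 124 against WT_2year, males only 41 and 179, and a mean of at least 50 or no sex term 9 with age. Without TG_2mon replicate 3 and WT_2year replicate 4 together there were 13 with age. Sequencing depth is unknown, so no limit could be set for low values.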
